A study of Mus musculus with 32 samples.

Results

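The mouse genes described here are 42 that carry out or control DNA replication and entry into S phase. They were taken by symbol from the 55103 rows of the deposited gene counts: 10 genes of origin licensing, 6 of helicase activation, 6 primase and polymerase genes, 6 of the sliding clamp and its loader, 4 of single-strand binding and flap processing, 5 of nucleotide supply, 3 of G1/S control and 2 of chromatin assembly. All 42 were present and all 42 passed the filter on low counts that left 20474 genes for testing, so no member was lost.

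DNA is copied once per cell cycle. In G1 the origin recognition complex, with Cdc6 and Cdt1, loads rings of the proteins Mcm2 to Mcm7 onto origins. Cyclin-dependent kinases, those bound by cyclin E among the first, then let Cdc45, the GINS complex and Mcm10 turn the loaded rings into active helicases. Polymerases, clamps, ligase and a supply of deoxynucleotides follow at the fork. Many of these genes are transcribed by E2F factors at the G1/S transition, so their RNA is abundant in cycling cells and low in resting ones, and cells with damaged DNA can hold the transition through p53 and the kinase inhibitor p21.

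RNA was sequenced from bulk tumours of KPC36, a mouse line whose name marks it as one of the KPC lines of pancreatic ductal adenocarcinoma; the labels give neither its genotype nor the strain, age or sex of the mice. There were 4 groups of 8 libraries: tumours irradiated with carbon ions, untreated tumours serving as the controls of that arm, tumours irradiated with photons, and untreated tumours serving as the controls of the photon arm. Carbon ions are charged particles that deposit most of their energy near the end of their path, and photons are the radiation of conventional radiotherapy; doses are not given in the labels. The series compared tumours taken on days 4 and 7 after treatment and untreated tumours of the same days, but the day of each library is not in the labels, so both days are mixed here in unknown shares. Replicate numbers used here were given in the order of accession, are not the submitters' and pair no libraries. Whether the 8 libraries of a group came from separate mice is not stated either, so p-values measure the spread between these samples.

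The totals ranged from 13891863 to 71645903 estimated counts per library. Titles begin with D or M, letters whose meaning is not stated; D marks 4 controls and 3 irradiated libraries of the carbon-ion arm and none of the photon arm. Title numbers of the photon controls lie between 19 and 48 and those of the photon-irradiated libraries start at 95. If they give an order of collection, that order and the effect of photons cannot be told apart. The 8 epithelial marker genes examined, such as Epcam and Krt19, summed to between 2396 and 5369 CPM in every library (CPM expresses the count of a gene relative to the scaled total of its library), and 8 fibroblast markers to between 5472 and 26794 CPM. The tumours thus held stromal as well as epithelial RNA, although the labels call the cell type malignant. Photon control replicate 2 was the lowest control for most members, so the photon results are also given below with it and each other library of that arm left out. In bulk tissue, fewer cycling cells and less RNA per cycling cell cannot be told apart.

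Of the members, 34 have a promoter window in the RefSeq table for build GRCm38.p6, which covers 250 bases before to 50 after the start of the gene. These windows were searched on both strands for the E2F site, spelled TTTCCCGC, TTTCGCGC, TTTGCCGC or TTTGGCGC, for the cell cycle homology region, spelled TTTGAA or TTCGAA, and for CCAAT. A gene counted as holding a motif where any of its windows did; the 34 members have 38 windows. An E2F site was found in 12 of the 34 members (35.3%) and in 2.6% of the 27025 genes of the table (2.26% of its 32851 windows). The CCAAT box was found in 20 members (58.8%) and in 41.1% of all genes, and the cell cycle homology region in 6 members (17.6%) and in 21.7% of all genes. The 12 sites are shown because this motif, of the 3 searched, had the largest contrast between members and all genes. Each line gives 30 bases of the gene's own strand, 5′ to 3′, with an E2F site in capitals. TTTGGCGC and its like read on the opposite strand appear as GCGCCAAA and its like. In windows with several sites, the one nearest the start of the gene is in capitals. The lines of Rfc3 and Mcm5 also hold TTTCGCGC, before the capitals in Rfc3 and overlapping them in Mcm5.

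Orc1: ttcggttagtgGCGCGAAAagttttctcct
Cdc6: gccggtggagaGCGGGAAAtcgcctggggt
Cdt1: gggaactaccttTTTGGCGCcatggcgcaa
Mcm3: aaacttccgtgGCGGGAAAacttgggaagt
Mcm5: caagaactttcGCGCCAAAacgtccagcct
Mcm6: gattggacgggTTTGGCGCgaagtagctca
Mcm7: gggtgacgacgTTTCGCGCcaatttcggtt
Gins3: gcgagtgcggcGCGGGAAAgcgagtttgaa
Pola1: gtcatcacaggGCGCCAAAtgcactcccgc
Pold1: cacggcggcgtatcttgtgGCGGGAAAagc
Rfc3: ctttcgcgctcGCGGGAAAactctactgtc
Lig1: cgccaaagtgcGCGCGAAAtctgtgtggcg

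Origin licensing, the largest role with 10 of the 42 members, supplies 7 of the 12, and all its genes but Mcm4 have a window. The window of Pold1 lies at chr7:44548766-44548795 on the minus strand, where the site begins at base 40 of the gene as RefSeq starts it, and that of Mcm5 at chr8:75109349-75109378 on the plus strand, 149 bases before it. In Rfc3 (chr5:151651190-151651219, minus strand) the site begins at base 1 of the gene as RefSeq starts it, and Mcm6 (chr1:128359734-128359763, minus strand) holds 3 sites in its window. A match is a string of letters and no measurement of binding. Matching members and others did not separate in the photon effect described below: the median log2 fold change was -0.35 over the 12 members with a site (1 past the threshold), -0.36 over the 22 without (2 past it) and -0.19 over the 8 members with no window in the table (2 past it).

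Levels between genes were compared as CPM per kilobase of the principal transcript. In the carbon-ion controls Pcna, the clamp that holds polymerases on DNA, was highest with 59.7 CPM per kilobase. Mcm7 followed at 46.8, Mcm6 at 36.1, Rrm2 at 31.3 and Tk1 at 28.8 CPM per kilobase. The lowest were Mcm10 at 2.56, Orc1 at 1.78 and Gins3 at 1.60 CPM per kilobase. The same 3 genes led and Orc1 and Gins3 came last in all 4 groups. Pcna ranged from 49.7 to 68.9 CPM per kilobase over the libraries of that group, so it did not overlap Gins3, which ranged from 1.16 to 2.05.

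The photon comparison asked which members differed between photon-irradiated tumours and the photon controls. Expression of 5 members fell and of none rose: the cyclin genes Ccne1 and Ccne2, the polymerase gene Pold1, the GINS gene Gins1 and the ribonucleotide reductase gene Rrm1, each by 27.5% to 41.7% (edgeR quasi-likelihood test, adjusted p from 0.0192 to 0.0415). That is 5 of 42, while 3.81% of all 20474 genes passed and 2.1% fell. The log2 fold change was below 0 in 41 of 42 members, with a median of -0.33; over all genes 50.1% were below 0 and the median was -0.0006. The exception was Rfc1, the large subunit of the clamp loader, at 0.08. At an unadjusted p under 0.05 there were 22 of 42 members, against 21.5% of all genes. DESeq2 found 7 members that fell, those 5 with Gins3 and Rpa1, against 7.73% of all genes. For every member the irradiated and control libraries overlapped, as they did for all but 0.474% of the genes tested. In 14 of the 42 all 8 irradiated libraries lay below the control median, against 9.63% of all genes, and in 28 of the 42 at least 7 did, against 20.8%.

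**Figure D1:**
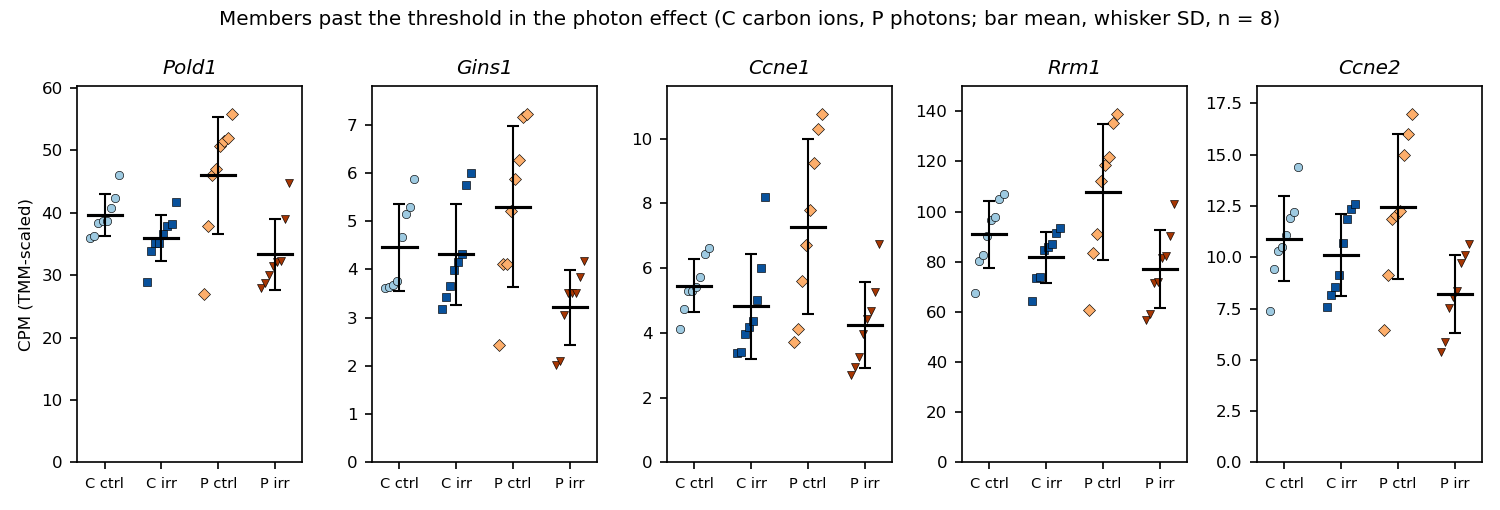
CPM in each library (points), mean (bar) and SD (whisker, n = 8) for the 5 members that fell after photons, in the controls (ctrl) and irradiated tumours (irr) of the carbon-ion (C) and photon (P) arms. In each panel all 8 photon-irradiated libraries lie below the median of the photon controls, and the lowest photon control, replicate 2, lies within the irradiated range or, for Pold1, below it. Other controls within that range are replicate 6 in every panel, replicate 4 for Ccne1, Gins1 and Rrm1, and replicate 7 for Ccne1.

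Pold1 encodes the catalytic subunit of polymerase delta, which copies the lagging strand (ENSMUSG00000038644, chromosome 7, 44532746 to 44548849, minus strand, GRCm38). In the photon controls its lowest, median and highest library stood at 27, 48.9 and 55.8 CPM, and in the irradiated libraries at 27.9, 31.8 and 44.8 CPM. So 6 of 8 controls lay above the highest irradiated library, while the lowest control lay below all of them. The means were 46 ± 9.36 and 33.3 ± 5.75 CPM (SD, n = 8 each), a log2 fold change of -0.46 (standard error 0.11, edgeR adjusted p 0.0192). Pola1, Pola2, Prim1 and Prim2 form the primase complex that starts each strand, and Pole copies the leading strand; their log2 fold changes lay from -0.51 (Prim1) to -0.15 and none passed. The catalytic subunit gene Pola1 was at 28.8 ± 7.57 CPM in the controls and 26.0 ± 4.27 CPM after photons (SD, n = 8 each), overlapping widely.

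Gins1 encodes a subunit of GINS, which joins Cdc45 and the Mcm ring in the active helicase (ENSMUSG00000027454, chromosome 2, 150905400 to 150931280, plus strand). Its libraries ran from 2.44 through a median of 5.55 to 7.22 CPM in the photon controls, and from 2.02 through 3.51 to 4.18 CPM after photons. All irradiated libraries but 2 lay above the lowest control, and 5 controls lay above the highest irradiated library. The log2 fold change was -0.72 (standard error 0.19, edgeR adjusted p 0.0325). The partner genes had log2 fold changes of -0.50 for Gins3, -0.17 for Gins4 and -0.16 for Gins2, and none passed. Gins2 lay at 28.6 ± 7.03 CPM in the controls and 25.6 ± 4.79 CPM after photons (SD, n = 8 each). Cdc45, the helicase cofactor, ran from 7.83 to 24.3 CPM in the controls and from 6.38 to 15.6 CPM after photons, all 8 irradiated libraries below the control median, at -0.49 with an adjusted p of 0.103. With Mcm10 at -0.53, the 6 helicase activation genes had a median of -0.50 and 1 of 6 passed, where 3.81% of all genes did.

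Rrm1 encodes the large subunit of ribonucleotide reductase, which makes deoxynucleotides (ENSMUSG00000030978, chromosome 7, 102441695 to 102469771, plus strand). The photon controls ran from 60.7 through 115 to 139 CPM and the irradiated libraries from 56.9 through 76.8 to 103 CPM. Here 5 controls lay above the highest irradiated library and 2 irradiated libraries below the lowest control. The log2 fold change was -0.48 (standard error 0.14, edgeR adjusted p 0.0403). Rrm2, the small subunit, whose RNA rises in S phase, stood at 22.2, 80.6 and 104 CPM (lowest, median, highest) in the controls and at 24.3, 42.7 and 70.6 CPM after photons. All 8 irradiated libraries were below the control median and 6 controls above the highest irradiated one, yet with a standard error of 0.23 its log2 fold change of -0.67 had an adjusted p of 0.0877. Tk1, thymidine kinase of the salvage route, was at -0.35 (adjusted p 0.113), and Tyms, which makes thymidylate, at -0.33 (adjusted p 0.286). Dut, which removes dUTP, was at -0.32. Thus 1 of the 5 nucleotide supply genes passed, where 3.81% of all genes did, and their median was -0.35.

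Cyclin E binds Cdk2 and drives the step from G1 to S. Its gene Ccne1 (ENSMUSG00000002068, chromosome 7, 38097984 to 38107534, minus strand) ran from 3.73 through 7.25 to 10.8 CPM in the photon controls and from 2.70 through 4.20 to 6.73 CPM after photons. It had the lowest value of the 42 members, -0.78 on the log2 scale (standard error 0.22, edgeR adjusted p 0.0382). Ccne2 (ENSMUSG00000028212, chromosome 4, 11191351 to 11204779, plus strand) ran from 6.46 through 12.2 to 17 CPM and, after photons, from 5.41 through 8.21 to 10.6 CPM. Its log2 fold change was -0.60 (standard error 0.17, edgeR adjusted p 0.0415). Of the controls, 4 for Ccne1 and 6 for Ccne2 lay above the highest irradiated library. E2f1, a transcription factor that activates genes of this step, was at 18.1 ± 4.5 CPM in the controls and 15.1 ± 2.84 CPM after photons (SD, n = 8 each), a log2 fold change of -0.26 with an adjusted p of 0.250.

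None of the 10 licensing genes passed, and their log2 fold changes lay from -0.60 to -0.06 with a median of -0.29. Cdc6, the loader of the Mcm ring, had the lowest value: its libraries stood at 5.86, 14.2 and 20.3 CPM (lowest, median, highest) in the photon controls and at 5.10, 9.24 and 13.9 CPM after photons. All 8 irradiated libraries lay below the control median, at -0.60 with an adjusted p of 0.105. Its partner Cdt1 was at -0.21 (adjusted p 0.398) and Orc1, the large subunit of the origin recognition complex, at -0.31 (adjusted p 0.424). Among the subunits of the Mcm ring, Mcm5 was at -0.58 (adjusted p 0.119), Mcm3 at -0.40, Mcm2 at -0.32 (adjusted p 0.222), Mcm6 at -0.28, Mcm4 at -0.22 and Mcm7 at -0.06. Subunits of 1 ring thus had unequal values, from 33.1% lower for Mcm5, at 47.6 ± 18.4 against 31.8 ± 12 CPM, to 4.07% lower for Mcm7, at 123 ± 20.1 against 118 ± 12.2 CPM (SD, n = 8 each). The differences between subunits were not tested.

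The clamp and its loader had the role median nearest 0, at -0.11. Rfc2, Rfc3 and Rfc5 lay between -0.15 and -0.06, Rfc4 at -0.41, and none of the 6 genes passed. Pcna itself ran from 50.1 through 97.4 to 127 CPM in the photon controls and from 46.5 through 67.2 to 96.2 CPM after photons, with all 8 irradiated libraries below the control median (log2 fold change -0.45, adjusted p 0.0997). For single-strand binding, Rpa1 was at -0.47 (adjusted p 0.0562) and Rpa2 at -0.16. Fen1, the nuclease that trims flaps between Okazaki fragments, was at 38.8 ± 9.35 CPM in the controls and 29 ± 7.45 CPM after photons, and Lig1, which seals them, was at -0.42 (adjusted p 0.0820). Fen1 had a log2 fold change of -0.42 with an adjusted p of 0.117. Chaf1a and Chaf1b, subunits of the factor that places histones on new DNA, were at -0.33 (adjusted p 0.133) and -0.37.

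**Figure D2:**
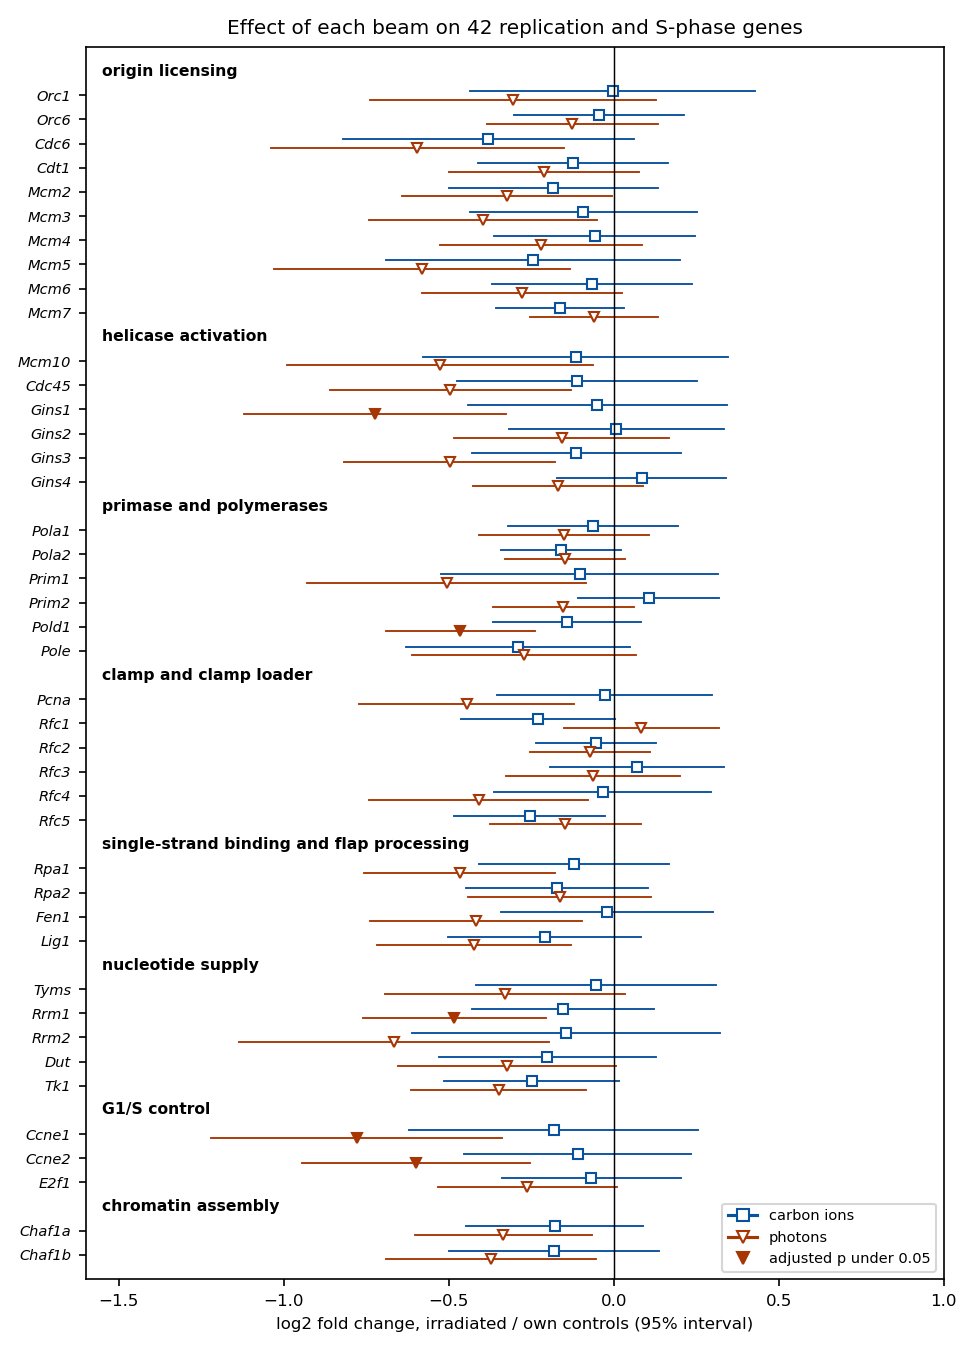
Log2 fold change of each of the 42 members against the controls of its own arm (horizontal axis), with its 95% interval, for carbon ions (squares) and photons (triangles), grouped by role; filled symbols passed the threshold. The photon symbols lie left of 0 for 41 members and the carbon-ion symbols for 38, and the 5 filled symbols all belong to photons.

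Against the carbon-ion controls, no member passed after carbon ions, nor did any of the 20474 genes (0% by edgeR). DESeq2 called 20 genes in all (0.0522%) and no member. The log2 fold change was below 0 in 38 of 42 members, with a median of -0.11; over all genes 48.5% were below 0 and the median was 0.0066. Only Rfc5 had an unadjusted p under 0.05, 1 of 42 against 5.75% of all genes. The 4 members above 0 were Gins2, Gins4, Prim2 and Rfc3. As after photons, irradiated and control libraries overlapped for every member, and for all but 0.0293% of the genes tested. In 10 of the 42, Cdc6, Cdt1, Mcm5 and Pold1 among them, 7 of 8 irradiated libraries lay below the control median, while 6.24% of all genes had 7 or 8 there; all 8 lay below it in no member and in 1.15% of all genes.

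Rfc5, a small subunit of the clamp loader, ran from 35.2 through 39.6 to 46.6 CPM in the carbon-ion controls and from 28.1 through 31.0 to 45.3 CPM after carbon ions. Most irradiated libraries thus lay below the lowest control, but the highest reached the upper controls. Its log2 fold change was -0.26 (standard error 0.11, edgeR adjusted p 0.777). Rfc1 was at -0.23 (adjusted p 0.879), and Tk1 at -0.25 (adjusted p 0.897), with 41.4 ± 3.10 CPM in the controls and 34.9 ± 5.15 CPM after carbon ions (SD, n = 8 each). The lowest value belonged to Cdc6, at 11.4 ± 1.19 against 8.81 ± 3.02 CPM, a log2 fold change of -0.38 (adjusted p 0.932).

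For the members that fell after photons, the carbon-ion values were -0.14 for Pold1, -0.05 for Gins1, -0.15 for Rrm1, -0.18 for Ccne1 and -0.11 for Ccne2. Their 95% intervals all included 0. The lower bounds were -0.37, -0.44, -0.43, -0.62 and -0.45 in the same order, so each gene's own photon value lay below its carbon-ion interval; the photon values have errors of their own, and the test of the difference, which no member passed, is given below. Rrm2 was at -0.14, with an interval from -0.61 to 0.32. The role medians lay between -0.18 for chromatin assembly and -0.04 for the clamp and its loader. The remaining always-reported members were Mcm5 at -0.24, Mcm2 at -0.18, Chaf1a at -0.18, Cdt1 at -0.12, Cdc45 at -0.11, E2f1 at -0.07, Pola1 at -0.06, Tyms at -0.05, Pcna at -0.03, Fen1 at -0.02, Orc1 at -0.0036 and Gins2 at 0.0083 on the log2 scale. In the M-titled libraries alone, 37 of 42 members were below 0 with a median of -0.11, and in the D-titled libraries alone 30 of 42 with a median of -0.13; no member passed in either.

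Whether the beams differed was tested as the carbon-ion effect minus the photon effect. No member passed, while 16 of all genes did (0.0781% by edgeR, 1.54% by DESeq2, also with no member). The difference was above 0 in 36 of 42 members, with a median of 0.22 against 0.0174 over all genes. At an unadjusted p under 0.05 there were 3 members, Gins1, Pold1 and Ccne2, against 13% of all genes. Gins1 had a difference of 0.67 with a 95% interval from 0.12 to 1.23 and an edgeR adjusted p of 0.293. For Pold1 the difference was 0.32, with an interval from 0.0054 to 0.64 and an adjusted p of 0.375, and for Ccne2 0.49, from 0.0039 to 0.98, with an adjusted p of 0.379. The 5 calls after photons and the absence of calls after carbon ions therefore do not show that the beams acted differently on any member.

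The mean of the effects of both beams asked what irradiation of either kind changed. No member passed by edgeR, where 0.772% of all genes did. By DESeq2, where 1.84% did, Pold1 alone fell. The value was below 0 in 41 of 42 members with a median of -0.24. Over all genes 47.6% were below 0 and the median was 0.0081. An unadjusted p under 0.05 was found for 23 of the 42, against 14.3% of all genes. Pold1 came nearest at -0.30 with an edgeR adjusted p of 0.0544, followed by Rrm1 at -0.32 (0.104) and Tk1 at -0.30 (0.112).

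The untreated groups differed from each other without any beam. Of all genes 9.14% passed between the controls of the arms, and 1 member did: Pola1 was higher in the carbon-ion controls. Its libraries ran from 32.9 through 38.9 to 43.2 CPM there and from 17.9 through 28.0 to 39.5 CPM in the photon controls, overlapping at the upper end (log2 fold change 0.43, edgeR adjusted p 0.0283). Between the irradiated groups 5.08% of genes passed, and Pola1 was again the only member, higher after carbon ions by a log2 fold change of 0.52 (adjusted p 0.0244). Its difference of effects was 0.09 with an adjusted p of 0.852. The call between the controls was lost with M-titled libraries only (0.52, adjusted p 0.0577) and with the epithelial marker mean as a term (0.30, adjusted p 0.272). Between the irradiated groups it was lost with the muscle term (0.48, 0.112), the epithelial term (0.37, 0.197) and only the groups compared (0.53, 0.0503), while Pola1 stayed above 0 in each. Leaving out carbon-ion control replicate 7 or photon control replicate 2, 3 or 6 also ended the first call (adjusted p 0.0556 to 0.0654), and carbon-ion irradiated replicate 5 or photon-irradiated replicate 1 or 3 the second (0.0578 to 0.0636). Markers moved between the arms too: between the controls 3 of 8 epithelial markers were higher in the carbon-ion arm (median log2 difference 0.38) and 2 of 8 fibroblast markers lower (-0.59). Between the irradiated groups 1 of 8 epithelial (0.41), 4 of 8 macrophage (0.60) and 3 of 6 neutrophil markers (0.90) were higher after carbon ions, and the muscle markers had no call and a median of 3.16. Beyond the terms given above, their part in the Pola1 difference was not tested. Pola1 lies on chromosome X. Over the members the median was -0.04 between the controls and 0.17 between the irradiated groups.

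**Figure D3:**
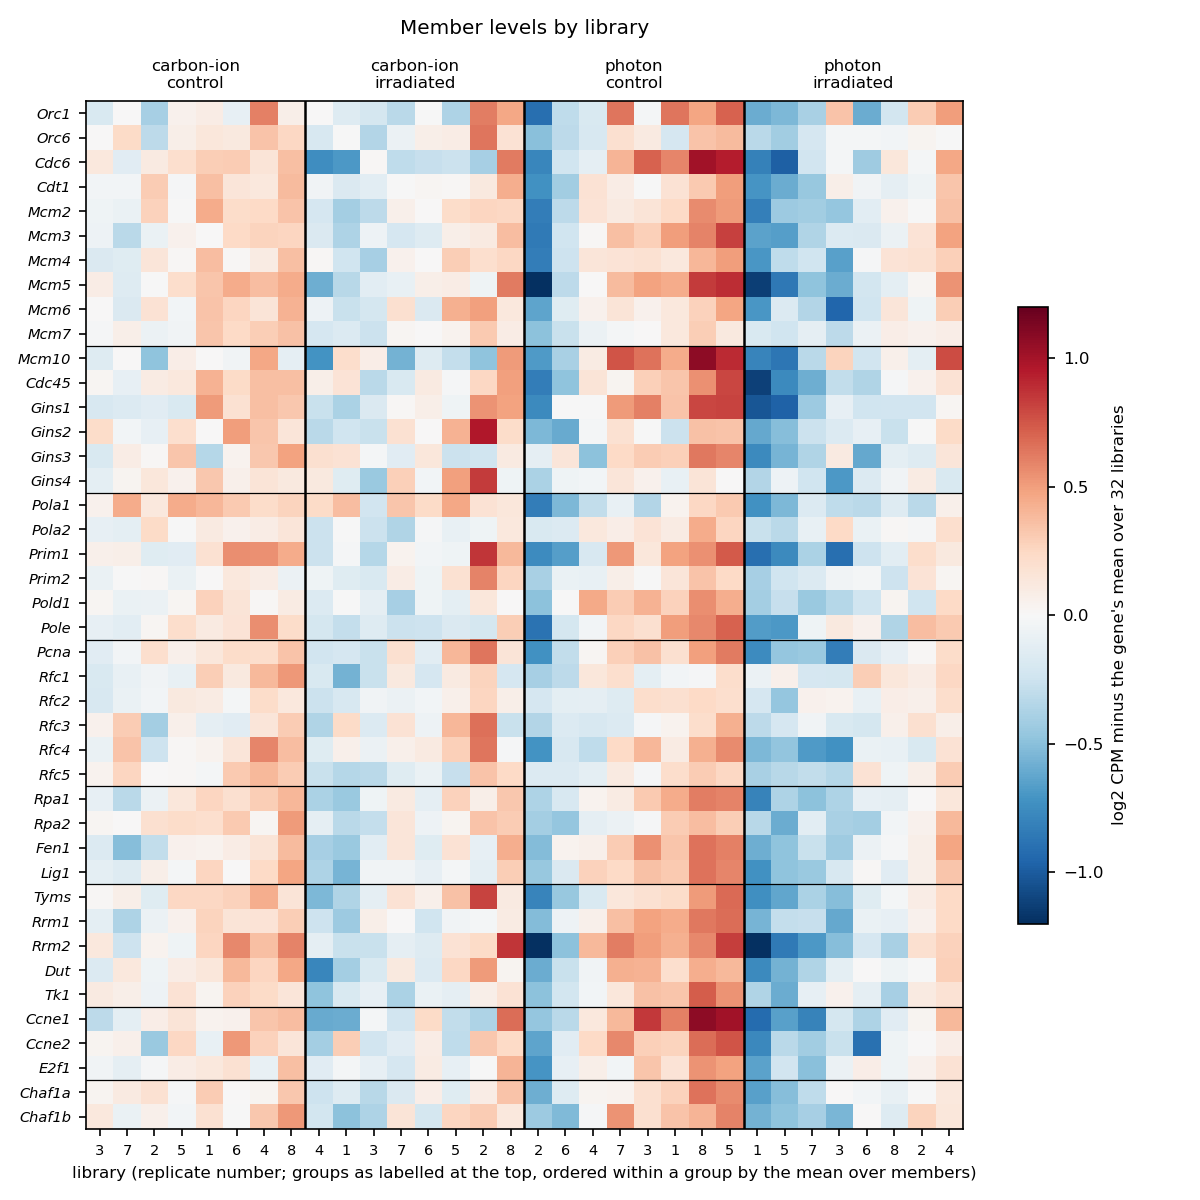
Log2 CPM of each member (rows, grouped by role) in each library (columns, ordered within a group by the mean over members), minus the gene's mean over the 32 libraries; red is higher, blue lower, and colours stop at 1.2 in either direction. Most rows change together from library to library, and the photon controls hold both the lowest-standing control, replicate 2, and the highest libraries, replicates 5 and 8.

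Within groups the members moved together. The mean log2 CPM over the 42 genes was 4.78 ± 0.14 in the carbon-ion controls, 4.65 ± 0.20 after carbon ions, 4.78 ± 0.39 in the photon controls and 4.45 ± 0.28 after photons (SD, n = 8 each). The photon controls spread from 4.06 in replicate 2 to 5.21 in replicate 5, wider than the shift between the groups. After removal of group means, each member was correlated with the mean of the others over the 32 libraries as a description; the libraries share their depth and scaling. Pearson's r was highest for Mcm5 (0.956) and Mcm3 (0.954) and lowest for Gins3 (0.504) and Gins4 (0.458), with a median of 0.85 and 26 members above 0.8. The clamp loader genes Rfc3 (0.564) and Rfc1 (0.630) were next lowest.

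Genes outside the 42 were counted by lists. Of 43 other replication factors, 3 fell after photons and 1 rose, where 3.81% of all genes passed and 2.1% fell. Those that fell were Tipin at -0.69 (edgeR adjusted p 0.0253), which protects stalled forks, Pole2 at -0.70 (0.0270), a subunit of polymerase epsilon, and Topbp1 at -0.39 (0.0328), which helps to activate origins and the checkpoint kinase Atr. The gene that rose was Rrm2b, the p53-induced small subunit of ribonucleotide reductase, from 19.3 ± 2.06 to 23.9 ± 2.74 CPM (SD, n = 8 each), a log2 fold change of 0.31 with an edgeR adjusted p of 0.0326. Its S-phase counterpart Rrm2 was at -0.67 and did not pass. The list's median was -0.20, and 39 of 43 were below 0, against 50.1% of all genes.

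Of 25 other G1/S regulators 2 fell after photons, where 2.1% of all genes fell. These were E2f7 at -0.82 (edgeR adjusted p 0.0452), an E2F family repressor, and Cdc25a at -0.31 (0.0463), the phosphatase that activates Cdk2. Of 23 mitosis genes 7 fell, with the smallest p at Kif23 (-0.59, edgeR adjusted p 0.0253), Bub1b (-0.59, 0.0296) and Tpx2 (-0.81, 0.0348), and the list's median was -0.57, lower than the -0.33 of the 42; the difference between the lists was not tested. The proliferation marker Mki67 did not pass, at 194 ± 68.4 against 158 ± 56.9 CPM (SD, n = 8 each), -0.30 with an adjusted p of 0.426. After carbon ions Mki67 was at -0.35 (adjusted p 0.959) and no gene of these lists passed.

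Of 7 inhibitors of cyclin-dependent kinases none passed for a single beam. Cdkn1a, which encodes p21 and is a p53 target, ran from 18.5 through 26.0 to 50.8 CPM in the photon controls and from 25.1 through 56.5 to 66.7 CPM after photons (0.83, adjusted p 0.0913). In the carbon-ion arm the controls ran from 18.1 through 29.9 to 58.5 CPM and the irradiated libraries from 26.6 through 83.2 to 129 CPM (1.24, adjusted p 0.308). Over both beams Cdkn1a rose by a log2 fold change of 1.04 with an edgeR adjusted p of 0.0121. Of 18 other p53 targets, Trp53inp1 rose after photons, from 65.4 ± 14.8 to 92.3 ± 8.13 CPM (SD, n = 8 each), at 0.50 with an adjusted p of 0.00795; after carbon ions it was at 0.31 (adjusted p 0.521).

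**Figure D4:**
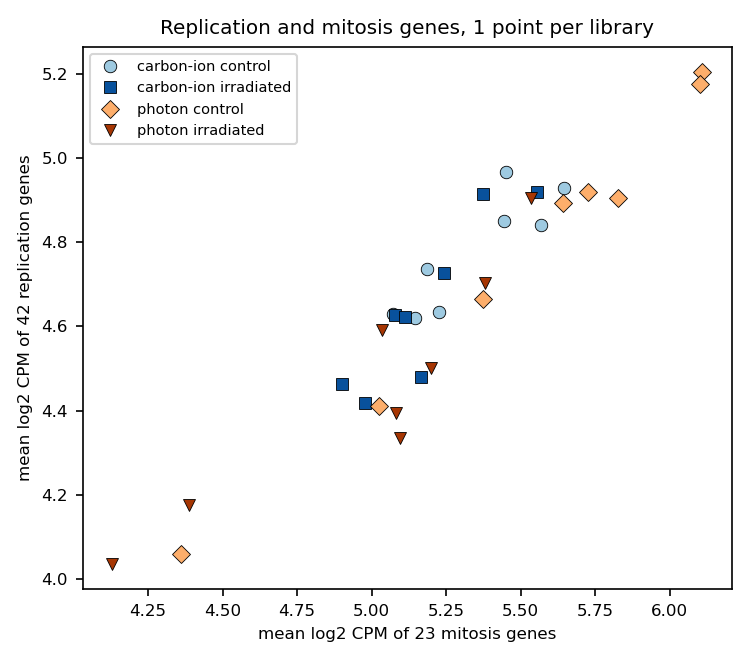
Mean log2 CPM over 42 replication genes (vertical) against that over 23 mitosis genes (horizontal), 1 point per library, by group. The points follow 1 band; photon control replicate 2 (4.06 on the vertical axis) lies with the lowest photon-irradiated libraries.

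Over the 32 libraries, with group means removed, the mean of the 42 correlated with that of the mitosis genes at a Pearson's r of 0.946 (Spearman's rho 0.905), and at 0.920 without the 2 farthest libraries, photon control replicate 2 and photon-irradiated replicate 4. With the means of the p53 targets and the inhibitors of cyclin-dependent kinases r was 0.558 and 0.339 (0.499 and 0.255 without those 2 libraries), and with the epithelial, skeletal muscle and macrophage marker means 0.176, 0.220 and 0.404. These are descriptions over libraries that share depth and scaling.

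Markers of other cell types also moved with the photon groups, where 3.81% of all genes passed and 2.1% fell. Summed levels ran from 12556 to 26794 CPM in the photon controls and from 9133 to 16919 CPM after photons for 8 fibroblast markers, of which Pdgfrb and Fap fell, and from 531 to 1055 and from 356 to 712 CPM for 8 macrophage markers, of which Csf1r and Mrc1 fell. Of 6 neutrophil markers tested 3 fell. The sum over all 7 listed lay between 97.2 and 276 CPM in the controls and between 52.9 and 154 CPM after photons. Among 8 T cell markers tested 2 fell and 1 rose, with sums over all 9 listed from 8.02 to 16.5 and from 4.83 to 9.87 CPM. Tek of 6 endothelial markers fell, with sums from 254 to 522 and from 192 to 411 CPM. None of 8 skeletal muscle markers passed, but their median log2 fold change was -3.12, and their sum ran from 3.18 to 1284 CPM in the controls and from 0.963 to 315 CPM after photons. The 8 epithelial markers had no call and a median of 0.12, from 2680 to 4378 CPM in the controls and from 2396 to 4322 CPM after photons. B cell markers (1 of 4 tested), erythroid markers (3 of 6 tested) and adipocyte markers (5 tested, median -1.43) had no call. The highest sum over all listed markers in the photon arm was 1.65 CPM for B cells and 8.59 CPM for the erythroid list. Hba-a1 was at 0 in every photon control, and every other marker was above 0 in some library of each group. With the muscle marker mean as a term in the fit, 0 of the 42 passed after photons and their median was -0.23, and 1.09% of all genes passed in that fit. With the epithelial mean 3 members and 2.99% of all genes passed, and the members' median was -0.35. For the other lists, their part in the result was not tested.

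**Figure D5:**
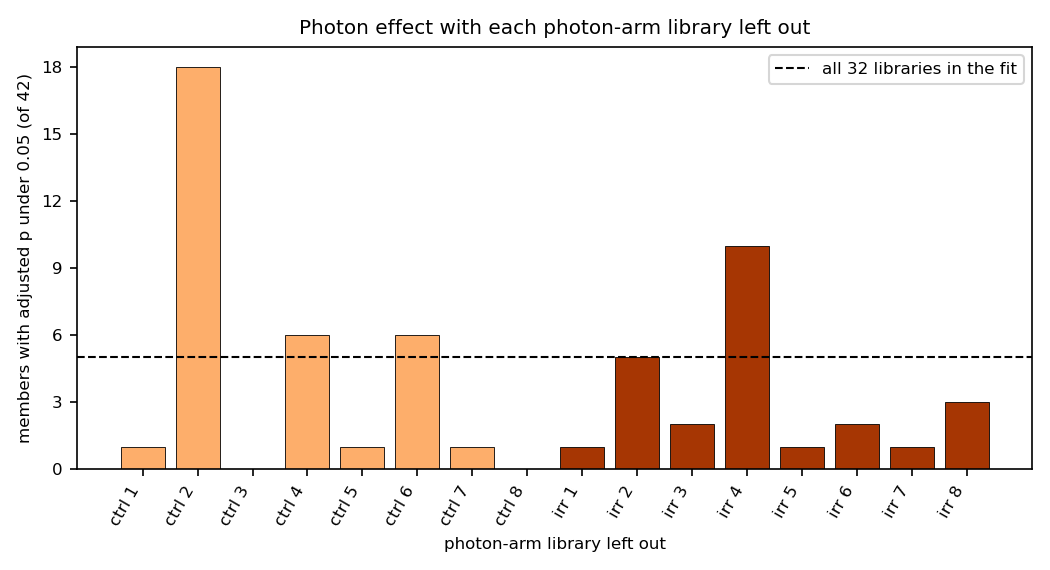
Members with an adjusted p under 0.05 in the photon effect when each library of the photon arm is left out in turn (bars; ctrl, control; irr, irradiated), with the 5 of the fit to all 32 libraries as a dashed line. The count runs from 0 without control 3 or control 8 to 18 without control 2.

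The photon calls rested on single libraries, while the direction did not. Without photon control replicate 3 or replicate 8 no member passed, where 1.16% and 1.31% of all genes did. Without replicate 2, the control lowest in the members, 18 members and 8.05% of all genes passed, and without photon-irradiated replicate 4, the highest of its group, 10 members and 4.4% of all genes. Over these 16 fits the share of all genes was thus lowest where no member passed and highest where 18 did. That count was 1 without control 1, 5 or 7 or irradiated replicate 1, 5 or 7, 2 without irradiated replicate 3 or 6, 3 without irradiated replicate 8, 5 without irradiated replicate 2 and 6 without control 4 or 6. Pold1 passed in 14 of these 16 fits, Gins1 in 8, Ccne2 in 6 and Rrm1 and Ccne1 in 5 each. The median over members stayed between -0.42 and -0.26.

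Fitting the photon groups without the carbon-ion arm left no member past the threshold, with 41 of 42 still below 0 and a median of -0.33, while 4.41% of the 19299 genes tested there passed. Among all genes called after photons, 351 of 781 were higher with the trimmed mean scaling, 566 of 960 with upper-quartile scaling and 511 of 830 with plain library totals; none of these scalings turned the sign of a member that fell. Ccne2 lost its call with upper-quartile scaling, where Rpa1 gained one, and both cyclin E genes lost theirs with plain totals.

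Reads of overlapping genes may add to some values, because the handling of strand in counting is not stated. Another annotated gene overlaps 22 members, for 17 of them on the opposite strand. Of those that fell, Ccne2 overlaps Ints8 on the opposite strand, Pold1 overlaps Mir7053 and Gm44833, and Rrm1 overlaps Gm45399, while Gins1 and Ccne1 overlap none. Pcna and Tyms have pseudogene copies named for them, so their counts are less certain.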

How the data were processed

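The authors deposited estimated counts per gene, named raw counts in the file, for 32 tumours. The submitters' processing notes name FastQC 0.12.0, Trimmomatic 0.32, RSEM 1.3.3 and build mm10, without roles. Per the labels' protocols, libraries were stranded mRNA libraries from RNA of stated integrity. Only 4 of 853648 values above 0 were whole (tolerance 1e-06), so values were rounded; the tests had been designed for counts. RSEM writes 2 decimals, but at the same tolerance only 157 of these values had that few, so they may have been rescaled before deposit, which is not given in the sources used here; a count model then takes its depth from the rescaled values. Library totals ranged from 13891863 to 71645903.

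With edgeR 4.0.16 (R 4.3.3) low genes were filtered (filterByExpr, minimum count 10), scaled by trimmed mean of M values and fitted in 1 quasi-likelihood model with a coefficient for each of 4 groups. P-values were adjusted by Benjamini-Hochberg over 20474 genes (threshold 0.05). Standard errors were derived as the absolute log2 fold change over the square root of the F statistic. The 95% intervals were built from them with the t distribution. DESeq2 1.42.0 and the other settings of the closing section were alternatives. Log2 CPM used a prior count of 2. All 112 within-group pairs of libraries differed by more than sampling noise (chi-square per gene at least 18.0). The scripts were tested on simulated data.

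Coordinates and transcript lengths came from the GENCODE annotation of GRCm38 and promoter windows from RefSeq. Members and lists were chosen with earlier results of these data known. Named are members past the threshold (or the 3 with the smallest p) in the beam effects, their difference and their mean, 17 members always reported, Cdkn1a and Mki67, and at most 3 called genes per other list and direction. The rule would print only the promoter of Pold1; the other 11 windows, and members named beyond the rule, were added after values were seen.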

Additional observations from a re-analysis of the deposited data

Results flagged for a closer look

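In 3 of 168 combinations of a member and a group, 1 library stood apart from the other 7 by Dixon's ratio (1.79%); chance flags about 1 in 20. Gins4 was at 15.9 CPM in photon control replicate 2, below the next library at 19.4 CPM; the same control was the lowest of its group in the mean of the members. Pole was at 56.3 CPM and Rrm2 at 106 CPM in carbon-ion irradiated replicate 8, above the next libraries at 41.2 and 68.3 CPM. Neither library was removed.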

How the results depend on the processing

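The median log2 fold change of the members kept its sign in every comparison a setting was run for, apart from leaving out a library; the D-titled libraries could be run for the carbon-ion effect alone, and only the groups compared for 4 of the 6 comparisons. No member was called after carbon ions or in the difference of effects under any setting run. Members called after photons, 5 in the report beside 3.81% of all genes, were 3 with plain library totals (4.05% of all genes), 1 without the filter on low counts (1.12%), 2 with M-titled libraries only (3.14%), 0 with the muscle marker term (1.09%), 3 with the epithelial marker term (2.99%) and 0 with only the groups compared (4.41%). For the mean effect 1 member, Pold1, was called with upper-quartile scaling (0.879%), plain totals (0.679%) or DESeq2 (1.84%). Between the controls of the arms 0 were called with M-titled libraries only (4.6%) or with the epithelial term (1.62%). Between the irradiated groups 2 were called by DESeq2 (10.7%) and with M-titled libraries only (5.34%), and 0 with the muscle or the epithelial term (0.0147% each) or only the groups compared (0.296%).

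Counts over all genes moved too. DESeq2 called 20 genes after carbon ions, 1559 after photons, 278 in the difference, 477 in the mean effect and 2002 between the irradiated groups. Without the filter 431 passed after photons, 4 in the difference and 319 between the irradiated groups. Upper-quartile scaling gave 94 and plain totals 163 in the difference. With M-titled libraries only there were 1 in the difference, 9 in the mean effect and 973 between the controls. The D-titled libraries alone, a setting chosen after seeing the data, gave 2 after carbon ions. The title letter as a term gave 98 in the mean effect, 1081 between the controls and 502 between the irradiated groups. The muscle term gave 223 after photons, 7 in the difference, 66 in the mean effect and 3 between the irradiated groups, and the epithelial term 46 in the difference, 88 in the mean effect, 332 between the controls and 3 between the irradiated groups. Only the groups compared gave 57 between the irradiated groups. The causes were not tested.

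Members below 0 after carbon ions, 38 of 42 in the report, were 30 in the D-titled libraries alone. Among the members named by the rule, 6 turned sign in some setting. Orc1 was at 0.0085 with relative log scaling, 0.0073 by DESeq2, 0.0086 with the title letter and 0.0642 in the D-titled libraries. Gins2 was at -0.0271 with upper-quartile scaling, -0.0709 with plain totals, -0.0767 in the M-titled libraries and -0.0117 with the epithelial term. Fen1 was at 0.0495 in the M-titled libraries, and Pcna at 0.014, Tyms at 0.0607 and Ccne2 at 0.19 in the D-titled ones.

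Leaving out 1 library at a time, 0 to 5 genes were called after carbon ions, 239 to 1656 after photons, 5 to 108 in the difference, 65 to 397 in the mean effect, 1178 to 2180 between the controls and 108 to 2159 between the irradiated groups. Members called were 0 to 18 after photons, 0 to 6 in the mean effect, 0 to 1 between the controls and 0 to 2 between the irradiated groups. The members' median between the controls ran from -0.106 to 0.0247. Carbon-ion values ran from -0.105 to 0.093 for Orc1, -0.148 to 0.0684 for Gins2, -0.121 to 0.0231 for Pcna, -0.0954 to 0.0481 for Fen1 and -0.186 to 0.0202 for Tyms.

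No paired analysis was possible because the labels give no replicate numbers; those in the text only name libraries in accession order. The lowest group mean of any member was 3.10 CPM, for Gins3 after photons.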
